A study of Mus musculus with 6 samples.

Results

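The genes of cholesterol and fatty acid synthesis were examined in total RNA of 6 mouse kidneys by RNA-Seq. They are a list of 37 gene symbols chosen by function, of which 36 matched a symbol in the deposited table, out of 23276 gene symbols in all. The list covers SREBP regulation (5 genes), the mevalonate and sterol pathway (16 of the 17 listed genes matched), fatty acid synthesis, elongation and desaturation (13 genes) and sterol efflux (2 genes). The symbol without a match was *Msmo1*, a sterol C4-methyl oxidase, whose RefSeq identifier stands in the table under the older symbol *Sc4mol*.

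Both groups of mice carried KspCre, a Cre recombinase driven by a promoter active in renal tubules, and *Pkd1* F/RC, which pairs a floxed allele with a germline hypomorphic RC allele. In 3 mice these were the only engineered alleles (SKO), and 3 mice were also homozygous for a floxed miR17~92 cluster (DKO). All kidneys were taken at postnatal day 22 according to the sample labels. Recombination was restricted to tubule cells, whereas RNA came from whole kidney, so fewer cells of a type and less RNA per cell cannot be told apart.

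The table holds 1 mean abundance per transcript over all libraries and no value for a single kidney. Levels are therefore given as the authors' mean in CPM, that is counts scaled to the size of the library, with no error, and the depth of each library is unknown. The order of neighbouring genes could not be tested against a spread between mice. The only columns that separate DKO from SKO kidneys are the authors' own test results, which were not used, and no difference between the genotypes is reported here. Whether transcripts of the floxed cluster were lower in DKO kidneys was likewise not analysed here. Where genes are set against each other, the level was divided by transcript length (CPM per kilobase).

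Cholesterol is built from acetyl-CoA by way of mevalonate and squalene, and fatty acids by elongation of acetyl-CoA in the cytosol. Both routes are controlled by the SREBP transcription factors, which SCAP escorts to the Golgi when sterols are low and which INSIG proteins hold back in the endoplasmic reticulum. SREBP-2, encoded by *Srebf2*, acts mainly on sterol genes, and SREBP-1c, one product of *Srebf1*, mainly on fatty acid genes. Proximal tubule cells draw most of their energy from the oxidation of fatty acids rather than from their synthesis.

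All 36 matched genes were above 1 CPM, as were 13001 of the 23276 gene symbols. Their mean levels ran from 3.28 CPM for *Tm7sf2*, a sterol C14-reductase, to 218.5 CPM for *Hmgcs1*, the cytosolic HMG-CoA synthase. Per length, 27 of the 36 genes lay above 4.06 CPM per kilobase, the median of the 12476 genes with an mRNA entry, a known length and at least 1 CPM. The median of the 36 genes was 6.99 CPM per kilobase.

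The median level per length was higher for fatty acid synthesis genes than for sterol synthesis genes, whereas the summed levels were close. The median was 10.3 CPM per kilobase over 13 fatty acid genes and 5.50 CPM per kilobase over 16 sterol genes, a ratio of 1.86. By role, the fatty acid medians were 14.8 CPM per kilobase for 4 elongases and 10.2 for 4 desaturases. The 5 genes of acetyl-CoA supply and fatty acid synthesis itself had a median of 7.08 CPM per kilobase, the level of *Thrsp*. That was close to the 6.84 of the 6 mevalonate genes, whereas the 10 squalene to cholesterol genes had 4.42. The sum was 159.4 CPM per kilobase for fatty acid genes and 149.8 for sterol genes, of which *Hmgcs1* alone gave 63.1. The median of all expressed genes was exceeded by 12 of the 13 fatty acid genes and by 11 of the 16 sterol genes. The ranges overlapped widely, from 2.02 to 29.0 CPM per kilobase for fatty acid genes and from 1.61 to 63.1 CPM per kilobase for sterol genes. No test was made, because genes are not replicates.

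**Figure D1:**
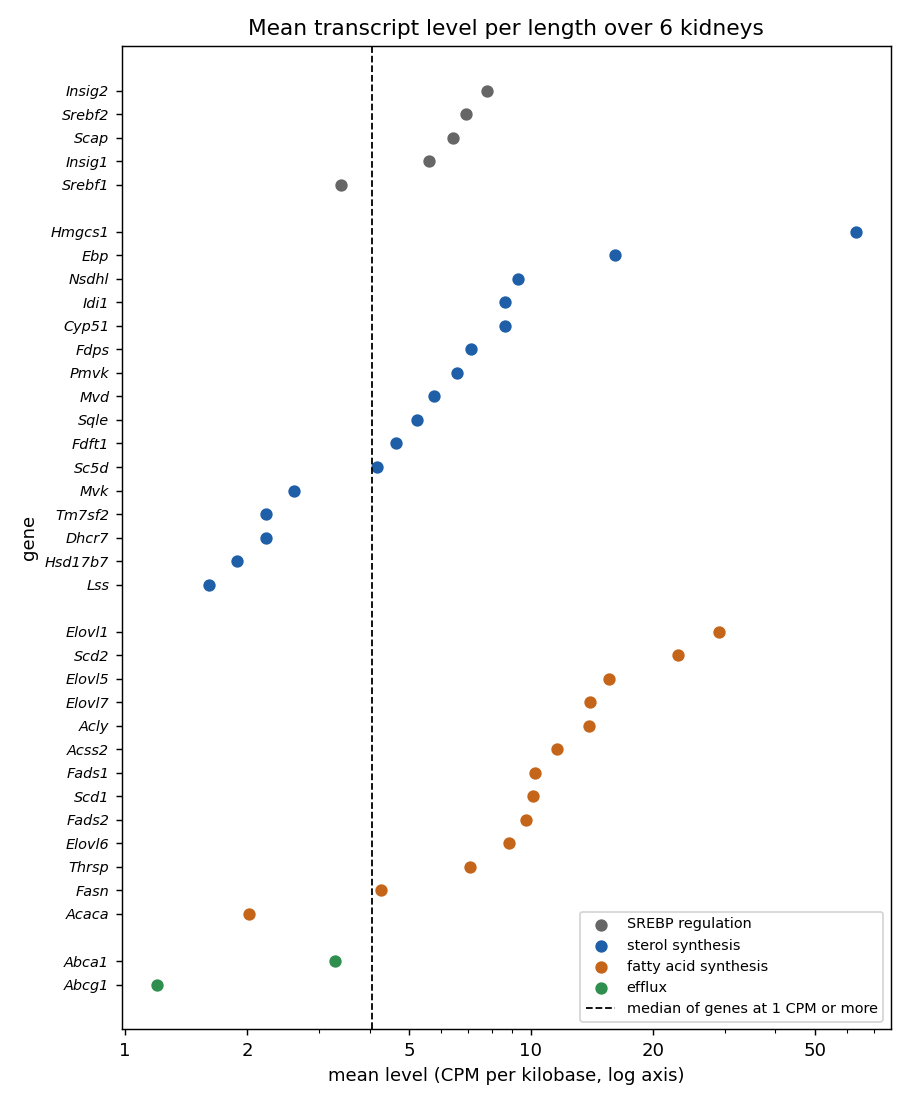
Mean level of each matched gene per kilobase of transcript, averaged by the authors over 6 kidneys (log axis; 1 point per gene, coloured by pathway). The dashed line is the median of expressed genes at 4.06 CPM per kilobase, and *Hmgcs1* stands apart from the other sterol genes at 63.1 CPM per kilobase.

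Among the regulators, *Insig2* had the highest level per length at 7.77 CPM per kilobase, followed by *Srebf2*. Per length, *Srebf2* exceeded *Srebf1* 2.02-fold, at 6.91 against 3.41 CPM per kilobase. The table lists 1 transcript of *Srebf1*, so the SREBP-1a and SREBP-1c forms were not separated. *Scap*, the sterol-sensing escort protein, was at 6.44 CPM per kilobase. Of the INSIG retention proteins, *Insig1* was at 5.60 CPM per kilobase, and *Insig2* exceeded it 1.39-fold. All regulators except *Srebf1* lay above the median of expressed genes, and the 5 genes stayed within a narrow band compared with the enzymes.

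In the mevalonate branch, *Hmgcs1* was far above the other genes. *Hmgcs1*, which condenses acetyl-CoA with acetoacetyl-CoA, was above 99.4% of gene symbols in CPM and made up 42.1% of the summed level per length of the 16 sterol genes. Its level per length was 24.3 times that of *Mvk*, the mevalonate kinase, at 2.60 CPM per kilobase. It was also 7.29 times that of *Idi1*, the isopentenyl diphosphate isomerase, at 8.65 CPM per kilobase. The other mevalonate enzymes lay close together. *Fdps*, the farnesyl diphosphate synthase, was at 7.10, *Pmvk*, the phosphomevalonate kinase, at 6.57 and *Mvd*, the mevalonate diphosphate decarboxylase, at 5.77 CPM per kilobase. *Mvk* was therefore the sole mevalonate gene under the median of expressed genes. Without *Hmgcs1*, the median of the remaining sterol genes was 5.23 CPM per kilobase, and their highest and lowest levels differed 9.97-fold in place of 39.1-fold.

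Levels in the squalene to cholesterol branch were lower, with a median of 4.42 CPM per kilobase over 10 genes. The highest was *Ebp*, the sterol isomerase, at 16.1 CPM per kilobase, followed by *Nsdhl*, a sterol dehydrogenase of C4 demethylation, at 9.28 and *Cyp51*, the lanosterol 14α-demethylase, at 8.61 CPM per kilobase. The entry steps were intermediate. Squalene synthase (*Fdft1*) was at 4.66 and squalene epoxidase (*Sqle*), a rate-limiting enzyme, at 5.23 CPM per kilobase. *Sc5d*, a sterol desaturase, was at 4.18 CPM per kilobase.

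The remaining 4 genes of that branch were under the median of expressed genes. *Tm7sf2* was at 2.23, *Dhcr7*, which catalyses the last reduction to cholesterol, at 2.22, *Hsd17b7*, a keto-reductase, at 1.89 and *Lss*, the lanosterol synthase, at 1.61 CPM per kilobase. The levels of *Ebp* and *Dhcr7*, which act near each other late in the pathway, differed 7.24-fold. The entry listed as *Sc4mol* was at 14.4 CPM and 7.02 CPM per kilobase, inside the range of its branch.

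In the fatty acid branch, the enzymes that supply acetyl-CoA were at a higher level per length than those that use it. ATP-citrate lyase (*Acly*) was at 13.9 and acetyl-CoA synthetase (*Acss2*) at 11.6 CPM per kilobase. The corresponding level was 4.26 CPM per kilobase for fatty acid synthase (*Fasn*) and 2.02 CPM per kilobase for acetyl-CoA carboxylase (*Acaca*), the rate-limiting enzyme. In CPM without length, *Fasn* at 42.8 CPM appeared above *Acss2* at 33.9 CPM, since its transcript of 10050 nucleotides is among the longest in the list. *Thrsp*, the lipogenic protein Spot 14, was at 9.04 CPM and 7.08 CPM per kilobase.

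The elongases, which extend fatty acyl chains, formed the group with the highest median per length, 14.8 CPM per kilobase over 4 genes. *Elovl1*, which acts on saturated and monounsaturated very long chains, was at 29.0 CPM per kilobase. *Elovl5*, an elongase of polyunsaturated chains, was at 15.6 and *Elovl7* at 13.9 CPM per kilobase. *Elovl6*, which extends palmitate to stearate, was at 8.84 CPM per kilobase, and *Elovl1* exceeded it 3.28-fold.

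The desaturases, which insert double bonds, had a median of 10.2 CPM per kilobase. Of the stearoyl-CoA desaturases, *Scd2* was at 125.9 CPM and *Scd1* at 48.8 CPM, and per length *Scd2* was 2.28 times *Scd1*. *Scd2* was the gene with the second highest level in CPM in the list, above 98.2% of gene symbols. Of the desaturases of polyunsaturated chains, *Fads1* was at 10.3 and the mRNA entry of *Fads2* at 9.74 CPM per kilobase. That mRNA entry was at 30.7 CPM, whereas the highest entry of *Fads2*, a transcript assembled from the reads for which no length was at hand, was at 54.9 CPM. Per length, the sterol and phospholipid exporters were under the median of expressed genes. In CPM without length, *Abca1* was at 33.8 CPM, above 88.4% of gene symbols, and *Abcg1* at 6.98 CPM, above 62.1%. Per kilobase, *Abca1* was at 3.29 and *Abcg1* at 1.20 CPM, the latter being the lowest level per length among all 36 genes.

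**Figure D2:**
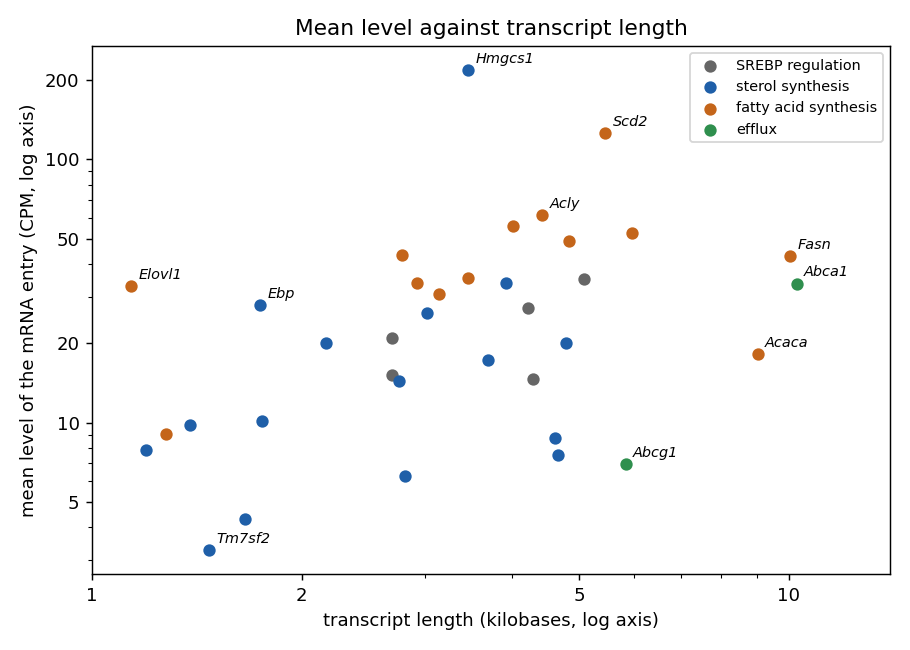
Mean level of the RefSeq mRNA entry of each gene (CPM, log axis) against transcript length (kilobases, log axis), 1 point per gene, coloured by pathway. Fatty acid genes had longer transcripts than sterol genes, with medians of 4013 and 2786.5 nucleotides, and *Fasn* and *Abca1* lie at the right edge.

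The length of the transcripts mattered for the comparison of the branches. Without division by length, the medians were 43.4 CPM for fatty acid genes and 12.4 CPM for sterol genes, a ratio of 3.49 in place of 1.86. The fatty acid median was the higher on both scales. Of the 16 sterol genes, 14 were below the fatty acid median per length, the exceptions being *Hmgcs1* and *Ebp*. Of the 13 fatty acid genes, 11 were above the sterol median per length. The exceptions were fatty acid synthase (*Fasn*) at 4.26 and acetyl-CoA carboxylase (*Acaca*) at 2.02 CPM per kilobase.

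Of the 36 genes, 19 have more than 1 transcript entry in the table. In 13 of them the highest pair of entries differed by less than 0.05 on the log2 scale of the mean, and in 9 of them all entries lay within 0.05. *Insig2* has 5 entries, and 3 of its 4 RefSeq mRNAs were at 21.0, 20.9 and 20.9 CPM. Whether a read was counted for every transcript it overlaps is not given in the sources used here, so the entries of a gene were not added. The widest gaps were those of *Sqle*, with 14.4 CPM for its mRNA and 1.57 CPM for an assembled transcript, and *Srebf2*, whose entries were at 36.96, 35.1 and 11.6 CPM. For *Fads2*, 2 transcripts assembled from the reads were at 54.9 and 37.6 CPM, above the RefSeq mRNA at 30.7 CPM. *Lss* likewise had an assembled transcript at 10.5 CPM over the mRNA at 7.53 CPM. In *Acly*, both mRNAs were at 61.5 CPM and an assembled transcript at 43.1 CPM.

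**Figure D3:**
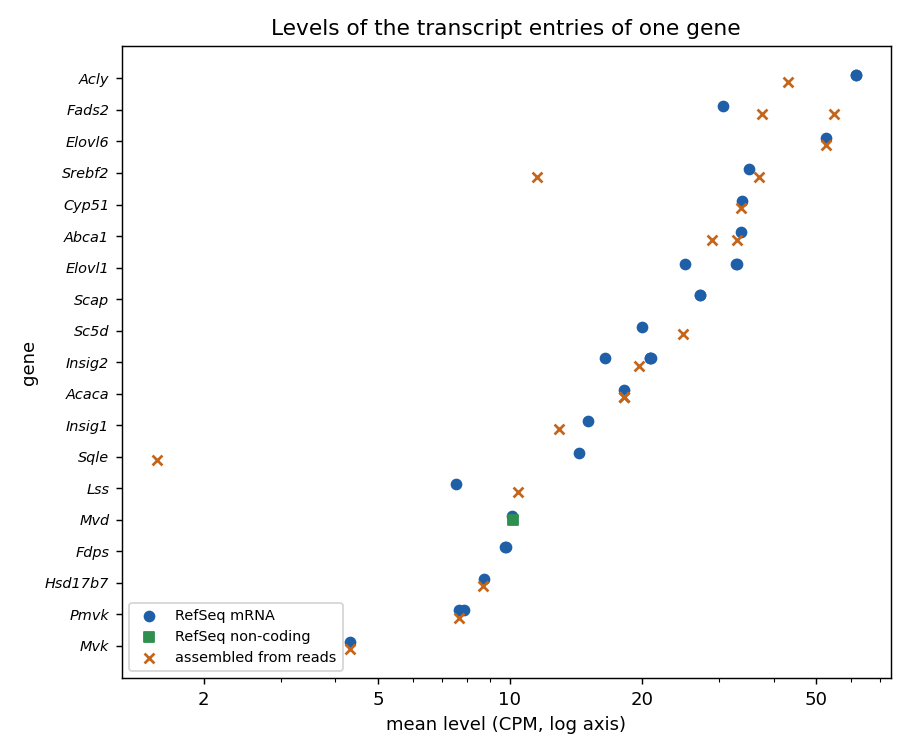
Mean level in CPM (log axis) of every entry of the 19 genes with more than 1 entry, by kind of entry. All entries lie within 0.05 on the log2 scale in 9 of the 19 genes, and the widest gaps are those of *Sqle* and *Srebf2*.

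Some exons are shared with neighbouring genes. In the annotation of GRCm38, exons of *Tm7sf2* overlap those of *Vps51* on the same strand over up to 532 nucleotides, and exons of *Fdps* overlap those of *Gm43738* over up to 197 nucleotides. On the opposite strand, 5 genes overlap a coding gene, namely *Srebf1*, *Fdft1*, *Cyp51*, *Acss2* and *Elovl1*. The longest such stretch, 774 nucleotides, lies between *Fdft1* and *Ctsb*. The libraries were stranded, but whether reads were counted by strand is not given in the sources used here, so the values of these genes are uncertain.

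Other genes of lipid synthesis and its control were looked up in a separate list of 23 symbols, of which 22 were found and 20 were above 1 CPM. Their median was 7.82 CPM per kilobase. The highest per length was *Tecr*, the last enzyme of the elongation cycle, at 46.2 CPM per kilobase. *Slc25a1*, the mitochondrial citrate exporter that feeds ATP-citrate lyase, was at 17.4 CPM per kilobase. The LXR receptors, which induce *Abca1* and *Abcg1*, were at 10.2 CPM per kilobase for *Nr1h2* and 3.81 for *Nr1h3*. The genes below 1 CPM were the elongases *Elovl3* at 0.0571 CPM and *Elovl4* at 0.463 CPM.

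The tissue label was checked against markers. The proximal tubule genes *Slc34a1*, *Lrp2*, *Cubn* and *Slc5a2* ranged from 108.3 to 1030 CPM. *Umod* and *Slc12a1* of the thick ascending limb were at 1022 and 617.9 CPM, *Slc12a3* of the distal convoluted tubule was at 169.4 CPM, and the principal cell genes *Aqp2* and *Scnn1g* were at 77.7 and 42.2 CPM. Adipose tissue, a lipogenic tissue that surrounds the kidney, was represented at a lower level in CPM than these tubule genes. Its 4 markers ranged from 0.873 CPM for *Lep* to 5.82 CPM for *Adipoq*. Per length, their median was 1.88 CPM per kilobase. *Adipoq* alone, at 4.51 CPM per kilobase, was above the median of expressed genes and above *Fasn* at 4.26. The liver markers *Alb* and *Apob* were at 13.4 and 3.42 CPM. Their part in the levels of the lipogenic genes was not tested.

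Promoter sequences were compared as a feature that the list did not use. RefSeq windows of GRCm38.p6, from 250 bases before to 50 bases after the annotated start, matched 29 of the 36 genes. The others were *Fdps*, *Fdft1*, *Sqle*, *Scd1*, *Scd2*, *Fads1* and *Abcg1*. Some genes have several annotated starts, with 32851 windows for 27025 genes, and a match in any window of a gene was counted. Genes with more windows therefore had more chances of a match. A CCAAT box, the binding motif of NF-Y, which acts with SREBP at sterol genes, was present on either strand in all 13 sterol genes that have a window. It was present in 6 of 10 fatty acid genes and in 4 of 5 regulators, and in 42.9% of the 9673 genes with at least 1 CPM. The strict sterol regulatory element TCACNCCAC was found in 1 of the 29 genes, *Hmgcs1*, against 1.48% of genes with at least 1 CPM. The E-box CACGTG was found in 7 of the 29 genes, against 11.8%. A match is a description of the letters and not evidence of binding, and no matches of different motifs overlapped in these windows.

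The *Hmgcs1* window is shown because it alone holds the strict sterol element. It lies on the forward strand at chr13:119690204-119690232, begins its element 137 bases before the annotated start, and has the element in capitals.
*Hmgcs1* sterol element: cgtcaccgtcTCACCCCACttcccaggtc

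In each of the 13 sterol genes, the CCAAT match nearest to an annotated start was taken, among those lying with their flanks before it. It began between 20 and 136 bases upstream, with a median of 47. In 12 of the 13 it began within 100 bases, and in 9 it was on the opposite strand, where it reads ATTGG. The shares of all genes with such a position or strand were not computed, so neither count is a trait particular to sterol genes. The fatty acid genes *Elovl5*, *Elovl1*, *Thrsp*, *Fasn* and *Acss2* also had such a match, at 17, 35, 52, 59 and 73 bases upstream. The only match of *Acly* began after the start. The sequences of the sterol genes are shown because all 13 with a window held a match. The sterol genes without a window were not examined. Each is written in the direction of the gene with the match in capitals and its neighbouring bases on both sides, and the position is that of the whole window in GRCm38.p6.
*Nsdhl*, chrX:72918491-72918515, forward strand: gactagcctcATTGGgcaaaatcat
*Sc5d*, chr9:42264310-42264334, reverse strand: ccggctgctgATTGGccggctgcct
*Mvd*, chr8:122443435-122443459, reverse strand: ggccagcgggCCAATcatatggcag
*Cyp51*, chr5:4104712-4104736, reverse strand: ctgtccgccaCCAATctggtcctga
*Idi1*, chr13:8885551-8885575, forward strand: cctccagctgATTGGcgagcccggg
*Hmgcs1*, chr13:119690296-119690320, forward strand: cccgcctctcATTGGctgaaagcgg
*Tm7sf2*, chr19:6067883-6067907, reverse strand: cccagcgctgATTGGctactgtgct
*Dhcr7*, chr7:143830155-143830179, forward strand: tccacttccgATTGGtcgtctgtga
*Mvk*, chr5:114444209-114444233, forward strand: aatgtttgacCCAATctgtaaagga
*Ebp*, chrX:8193553-8193577, reverse strand: ccctgtactgATTGGttcgtcagat
*Lss*, chr10:76531533-76531557, forward strand: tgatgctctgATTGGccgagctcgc
*Hsd17b7*, chr1:169969264-169969288, reverse strand: ccgagtcgcgATTGGcgggcctaac
*Pmvk*, chr3:89454395-89454419, forward strand: ctcaggttggCCAATtcacagcatc

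Among the matches shown, those of *Nsdhl*, *Sc5d*, *Mvd* and *Cyp51* were the nearest to the start, at 20, 24, 27 and 29 bases. That of *Pmvk* was the farthest. Closer upstream matches in *Hsd17b7*, at 12 bases, and in *Idi1* and *Mvk*, at 14 bases, were left out because their flanks reach the start. Counting every match in the window, *Mvk*, with 5, and *Hmgcs1* and *Nsdhl*, with 4 each, held the most. The levels of the 13 genes shown covered the full range of the sterol genes, from *Lss* at 1.61 to *Hmgcs1* at 63.1 CPM per kilobase. All 13 held the motif, so its presence could not be set against level.

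**Figure D4:**
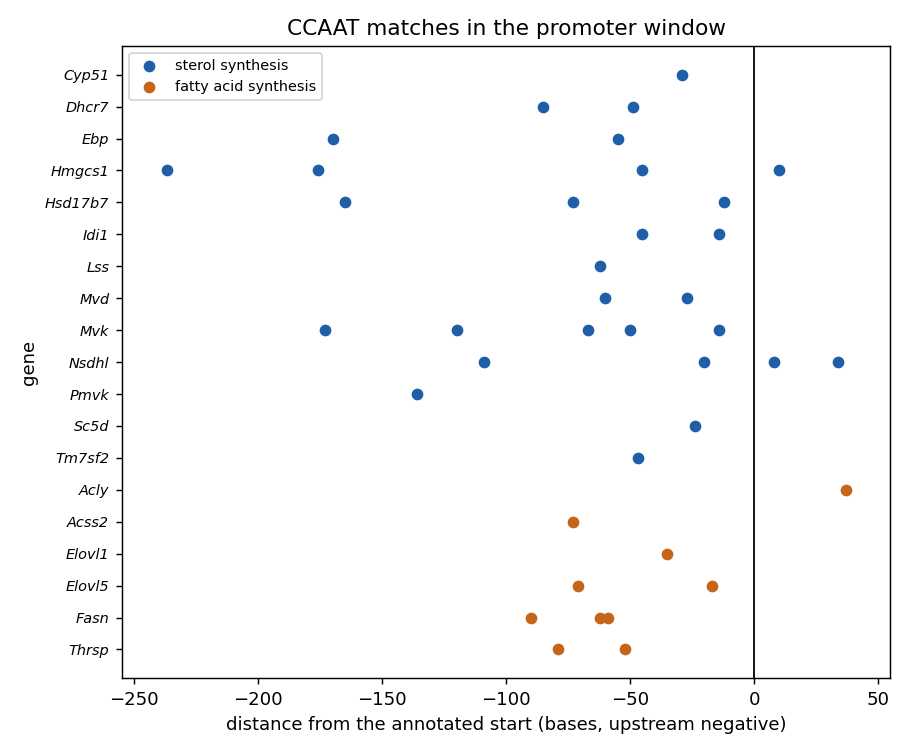
Position of the first base of every CCAAT match on either strand in the promoter windows of sterol and fatty acid synthesis genes. Distance is in bases from the annotated start of the window (upstream negative), and a gene can have several windows. All 13 sterol genes with a window carry a match and 12 of them carry one that begins within 100 bases upstream. The share of all genes with a match at such a distance was not computed.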

How the data were processed

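Libraries were made from total RNA of 6 kidneys, 3 SKO and 3 DKO, with a stranded total RNA kit, and grouped by the genotype label. The authors trimmed short single-end reads, mapped them to mm10 with TopHat2 2.0.12 and the iGenomes annotation and removed alignments of low mapping quality. The submitters' processing notes also list Cufflinks, featureCounts of Subread 1.4.6 and edgeR 3.2.4 without saying what each did. The deposited log2 value is the authors' mean log2 CPM of each of 54721 transcripts over all libraries. The other 4 columns of numbers hold the authors' own comparison of the groups (log2 fold change, likelihood ratio, p-value and adjusted p-value) and were not used. Depth per library is unknown, so no interval was set.

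Here the mean log2 CPM was converted to CPM. A gene was represented by its entry with the highest mean. For levels per kilobase, the RefSeq mRNA entry with the highest mean was divided by the length of the matching GENCODE M21 transcript on GRCm38, the assembly of mm10, the longest where several matched. A length was found for 20099 of 20470 symbols with an mRNA entry. No test between groups was made: the count test that had been planned needs values per sample. Motif and gene selection were tested on simulated data. Python 3.11.15, numpy 2.4.6, pandas 2.3.3 and matplotlib 3.10.9 were used. All listed members are described. They, the pathway and marker lists and the grouping by role were chosen with earlier results of these data known. Promoter motifs and the genes set against each other in ratios were chosen after the levels were seen.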

Additional observations from a re-analysis of the deposited data

How the results depend on the processing

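No paired analysis was possible because values per kidney are not given in the table; DESeq2, a count test with no filter and the omission of single replicates likewise need them. Without division by length, the median became 12.4 CPM for sterol genes and 43.4 CPM for fatty acid genes, and their ratio 3.49. With the entry listed as *Sc4mol* added, an alternative chosen after seeing the data, the sterol median became 5.77 CPM per kilobase and the ratio 1.78. Restricting the lists to genes with at least 1 CPM removed none. At a minimum of 5 CPM, 34 of the 36 genes passed, and at 0.5 CPM all 36. With RefSeq mRNA entries only, 1 gene, *Fads2*, moved by more than 1.5 times, to 30.7 CPM. Summing all entries of a gene moved 18 genes by more than 1.5 times, up to 4.73-fold for *Insig2*, and the cause was not tested. The spread between kidneys and the depth of the libraries limit every ordering given.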
